A study of Mus musculus with 3143 samples.

Results

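The cells described here are monocytes of the non-classical kind, found among single cells of the glomerular fraction of mouse kidney by the RNA of their surface receptors. A cell was a member when it held at least 50 CPM of Csf1r, at least 100 CPM of Treml4, Cd300e and Adgre4 together, and less than 500 CPM of C1qa, C1qb and C1qc together. CPM is the share of a gene in the gene reads of a cell, or of a pool of cells, times 1000000. By this rule 212 of 3143 cells were members, 142 of 1798 in the group labelled IgAN and 70 of 1345 in the group labelled Control. Members were thus chosen by the measured levels of Csf1r, Treml4, Cd300e, Adgre4 and the C1q genes, and the levels of the genes in the rule are given as a description.

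All cells came from kidneys of adult C57BL/6 mice. The 2 groups differ in the label for treatment: IgAN is short for IgA nephropathy, a kidney disease with IgA deposits in the glomerular mesangium, and Control for its comparison group. The labels do not say how the disease was produced. The glomerular fraction was digested with collagenase IV, pronase E and DNase I, viable cells positive for CellTracker, a dye that living cells retain, were sorted singly into plates of 384 wells, and each cell was sequenced by SMART-seq2, a full-length method. IgAN cells filled plates 313, 315, 316, 318, 322 and 325, and Control cells plates 314, 317, 321 and 326. Since animals are not named in the labels, a group counts as 1 sample and no test between the groups was run. Every plate held cells of 1 group only, which means that effects of plate and of group cannot be told apart. The spread over plates is given beside each difference.

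Non-classical monocytes are the Ly6C-low monocytes of the mouse. They form from Ly6C-high, classical monocytes under the nuclear receptor NR4A1, depend on CSF1 receptor signals for survival, and crawl along the inside of small vessels by the integrin LFA-1, a behaviour called patrolling. Glomerular capillaries are among the vessels they patrol, where they take up debris and immune complexes through Fc receptors. Treml4 is a TREM family receptor, Cd300e an activating receptor that signals through DAP12, and Adgre4 an adhesion receptor with EGF-like modules. C1q is a product of tissue macrophages, which the rule set aside.

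The members held 51792 to 779028 reads each, with a median of 245413, and 53920117 reads in all. The median was 242423 reads and 5136 genes in IgAN members and 247650 reads and 4844 genes in Control members, so depth was close in both groups. It differed more over plates, with medians from 155018 reads (316) to 459976 reads (322) and from 4089 genes (321) to 6321 genes (322). No cell of the series had the same counts as another. Intervals below are exact at 95% and cover counting error only. Those of gene levels take reads as independent. Copies of 1 molecule made by PCR could not be recognised, so the intervals of levels are too narrow.

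On Csf1r and C1q few cells lay near the limits of the rule, and on the receptor sum more did. The sum of Treml4, Cd300e and Adgre4 ran from 103 to 7918 CPM in members with a median of 2291 CPM. Just inside the limit, 14 members lay between 103 and 196 CPM, and just outside, 10 cells that met the other conditions lay between 51.1 and 85.6 CPM. Most of these 14 were on IgAN plates 315 and 325 and held at least 1000 CPM of 10 endothelial markers. In 1 of them these markers reached 11149 CPM, beside 21.1 CPM of Treml4 and 89.5 CPM of Adgre4. The others, on plates 314, 318, 325 and 326, held less than 1000 CPM. Csf1r ran from 55.6 to 5913 CPM in members, with 4 of them below 100 CPM, while 13 cells that failed on Csf1r alone had 0 to 15.2 CPM. C1q reached 97.4 CPM at most in a member, and the 7 cells that failed on C1q alone had 5176 to 18240 CPM. The 3 receptor genes were not found in the same cells throughout. At a level of 10 CPM, 95 members had all 3, 75 had Treml4 and Adgre4, 23 had Adgre4 only, 9 had Cd300e and Adgre4, 7 had Treml4 only and 3 had Treml4 and Cd300e. Cd300e was therefore the least regular of the 3, with a median of 10.8 CPM over members against 855 CPM for Treml4 and 820 CPM for Adgre4.

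Markers that the rule did not use were checked against the name. Of 14 such genes (Fcgr4, Ace, Nr4a1, Cx3cr1, Itgal, Spn, Pou2f2, Ear2, Gngt2, Eno3, Pglyrp1, Clec4a3, Cd36 and Cebpb), a member had a median of 12 at 10 CPM or more, with a range of 3 to 14, and 188 of 212 members had at least 8. The same count had a median of 7 in 17 C1q macrophages (Csf1r of at least 50 CPM and C1q of at least 500 CPM). It was 5 in 65 Ly6c2 or Ccr2 monocytes, which held Csf1r, less than 100 CPM of the receptor sum and at least 50 CPM of Ly6c2 and Ccr2 together. In 1219 endothelial reference cells, which held at least 1000 CPM of Kdr and Emcn together and almost no Ptprc, it was 3. At least 8 were also found in 7 of the 17 macrophages, 15 of the 65 monocytes and 1 of the 1219 endothelial cells. The markers thus go with the label for most members, though not equally in the groups and not with a sharp border to other myeloid cells. All 14 were lower in the 86 members with Ly6c2 or Ccr2, which are described below. At least 8 of the markers were found in 133 of 142 IgAN and 55 of 70 Control members. Fcgr4 reached 10 CPM in 71.8% of IgAN and 41.4% of Control members. Some members also held much endothelial RNA, up to 11149 CPM of 10 endothelial markers. Some of the 14 genes are not specific to the label: Cd36, Gngt2 and Nr4a1 were also read in endothelial cells.

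**Figure D1:**
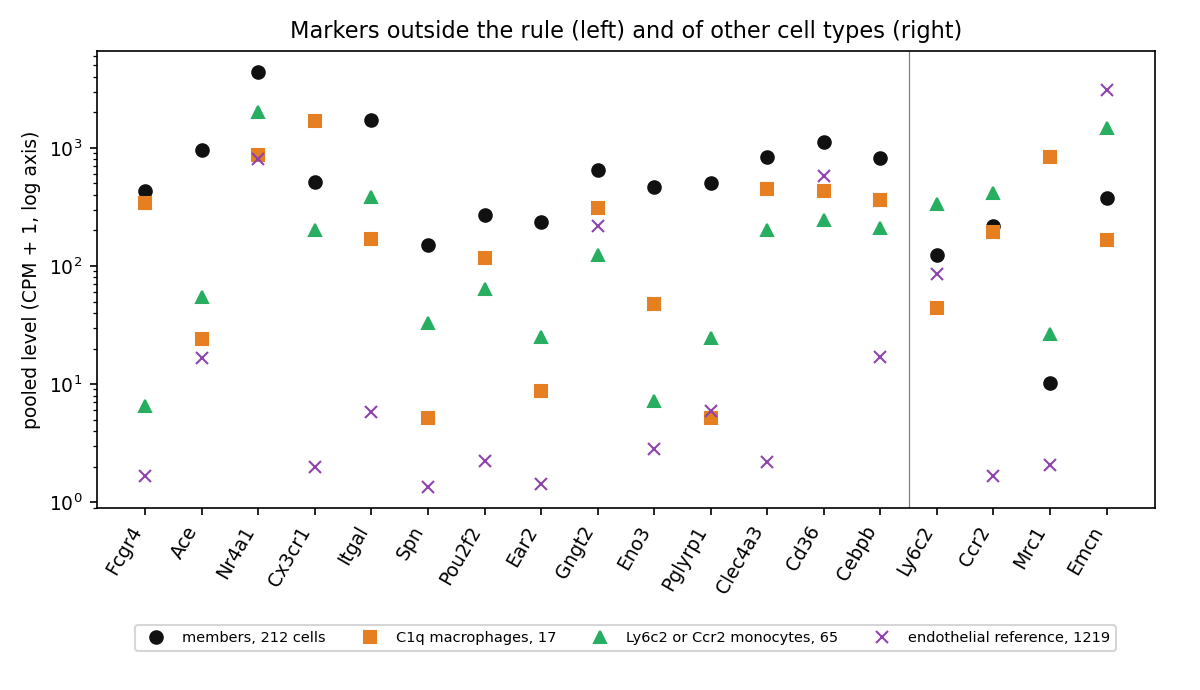
Pooled level of 18 genes (CPM with 1 added, log axis) in the members, C1q macrophages, Ly6c2 or Ccr2 monocytes and endothelial reference cells. The 14 genes left of the line are non-classical markers outside the rule, and the members are highest in all of them except Cx3cr1, which is higher in the C1q macrophages at 1676 CPM.

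Each of these markers has a known role in the cell. Fcgr4 encodes a low-affinity IgG receptor typical of non-classical monocytes, and its pooled level was 434 CPM in members against 0.664 CPM in endothelial reference cells. Ace, the angiotensin-converting enzyme, stood at 953 CPM against 15.5 CPM. Itgal, the alpha chain of LFA-1, stood at 1706 CPM against 4.81 CPM, and the sialophorin gene Spn (CD43) at 149 CPM against 0.332 CPM. Reads were found for Fcgr4 in 68.4% of members, for Ace in 93.4% and for Itgal in 97.6%. With every cell thinned to 50000 reads these shares were 61.3%, 91.0% and 96.2%, against 3.00%, 15.3% and 14.7% of 300 thinned endothelial cells, whose median depth before thinning was 258436 reads. The shares in members were above those in endothelial cells, which make some Ace themselves, so its share there is not a background. Pan-myeloid genes were present in nearly every member: Tyrobp, the DAP12 adaptor, and the leukocyte phosphatase Ptprc each had a read in 100% of members.

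Markers of related myeloid cells were present, and those of lymphoid cells, platelets and red cells were low. Classical monocyte markers summed to 2675 CPM in members, with 13 of 13 genes at 10 CPM or more, against 3311 CPM in Ly6c2 or Ccr2 monocytes. Macrophage markers summed to 2649 CPM, with 6 of 12 at that level, against 17986 CPM in C1q macrophages. The 8 T cell markers summed to 10.9 CPM in members and the 6 NK cell markers to 18.1 CPM. The platelet genes summed to 6.45 CPM and the erythroid genes to 1.93 CPM. Of 12 dendritic cell genes 8 reached 10 CPM, with a sum of 1453 CPM, and of 10 neutrophil genes 3 did. Endothelial markers summed to 1242 CPM in members against 13051 CPM in endothelial reference cells. Kidney epithelial RNA was also read, with sums of 350 CPM for proximal tubule, 285 CPM for distal tubule or collecting duct and 262 CPM for podocyte markers.

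The members were not uniform. Ly6c2 and Ccr2, which mark classical monocytes, reached a sum of 50 CPM in 86 members and stayed below it in 126, with 15 members near the limit, between 25 and 100 CPM. The share with these genes was 39.4% in IgAN (56 members) and 42.9% in Control (30 members). It varied widely by plate, from 4.35% (316) to 58.3% (325) in IgAN and from 22.2% (321) to 57.9% (326) in Control. A sum of 1000 CPM was reached by 6.34% of IgAN and 18.6% of Control members. This division is a range along 1 score and not a cell type. Median depth was 291890 reads in members with Ly6c2 or Ccr2 and 221162 reads in those without, and median endothelial RNA 391 and 438 CPM.

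The non-classical genes were lower in the members that kept Ly6c2 or Ccr2. Cd300e stood at 101 CPM in those members and 732 CPM in the others, Fcgr4 at 168 against 667 CPM, and Eno3, the beta-enolase gene, at 189 against 704 CPM. Ace was at 542 against 1313 CPM, Spn at 61.2 against 226 CPM and the scavenger receptor gene Cd36 at 520 against 1661 CPM. Treml4 differed less, at 617 against 1159 CPM, and Adgre4 stood at 648 against 1117 CPM. The opposite pattern held for genes of classical monocytes and of monocyte-derived dendritic cells. F13a1, the coagulation factor XIII A chain, was at 139 CPM in members with Ly6c2 or Ccr2 and 0.139 CPM in those without, the C-type lectin gene Cd209a at 287 against 1.22 CPM, and Chil3 at 341 against 45.0 CPM. The MHC class II gene H2-Aa was at 754 against 67.8 CPM. These values describe the same cells that gave the division, so no test is attached to them.

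Against the other cells with Csf1r, the members differed by both sets of genes. Of 8830 genes measured in the comparison with C1q macrophages, 1398 (15.8%) were higher in members by at least 2 log2 units and 581 (6.58%) were lower. The macrophages number 17 and only 2 plates held 3 cells of both kinds, so this comparison rests on few cells. The genes named are the 12 with the widest differences in each direction among those read in at least 50% of the cells on the higher side. On the member side they include Tppp3 (519 against 1.03 CPM), the lactate exporter gene Slc16a3 (261 against 0.414 CPM), the hexose transporter gene Slc2a6 (221 against 0.621 CPM) and S1pr5, a sphingosine phosphate receptor of circulating lymphoid and monocytic cells (387 against 1.86 CPM). Mbp, Serpinb10, Rnase6, Spata13, Pglyrp1, Bri3bp, Sorl1 and the integrin gene Itgb7 complete that side. On the macrophage side Mmp13, a collagenase, stood at 827 CPM against 0.0371 CPM in members and the chemokine gene Ccl12 at 310 against 0.389 CPM. The adhesion molecule gene Vcam1 was at 765 against 3.56 CPM and the mannose receptor gene Mrc1 at 837 against 9.16 CPM. Blnk, Pf4, Cadm1, C3ar1, Cbr2, Mgl2, Scimp and Npl follow.

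By list, 27 of 29 non-classical markers outside the rule were higher in members than in C1q macrophages, with a median of 1.92 log2 units, where the median over all measured genes was 0.07. Of 22 genes of patrolling and adhesion 19 were higher, with a median of 1.75. MHC class II genes went the other way: 1 of 11 was higher in members and the median was -1.72. Chemokines and their receptors also were lower, with 8 of 21 higher and a median of -1.72.

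Against Ly6c2 or Ccr2 monocytes a smaller share of genes was higher in members than against C1q macrophages, and a larger share was lower. The comparators number 65 and 17 cells, and the part of this in the counts was not tested. Of 9369 measured genes 178 (1.9%) were higher in members and 698 (7.45%) were lower. Pglyrp1, a peptidoglycan recognition protein, stood at 500 against 23.3 CPM, Fcgr4 at 434 against 5.52 CPM, Eno3 at 464 against 6.23 CPM and Ace at 953 against 53.2 CPM. S1pr5 was at 387 against 30.5 CPM. Bcl2a1a, Cd82, the phosphatase gene Dusp16, and the paired receptor genes Trem3, Cd300ld, Cd300lh and Lilra5 complete the 12. All 12 had the same sign on each of 8 plates with 3 cells of both kinds. They were picked for wide differences in these same cells, so the shared sign is a description and no separate support. Bcl2a1a has near-identical copies (Bcl2a1b, Bcl2a1d), so its reads are uncertain.

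On the lower side the genes named are largely those of endothelial cells: Adamts16, Unc45b, Lamc1, Ablim1, Arhgef15, Gem, Tie1, Akap2, Ces2g and Pakap, with the NK and T cell gene Nkg7. Endothelial RNA was higher in the comparator, where 36 of 65 cells held at least 1000 CPM of 10 endothelial markers, and Tie1, an endothelial receptor, stood at 505 CPM there, 40.0 CPM in members and 932 CPM in endothelial reference cells. Without cells of that kind on either side 338 genes were higher and 312 lower, and the Tie1 difference was -0.71 log2 units in place of -3.63.

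The share of members was compared between the groups next. Non-classical monocytes made up 7.90% of IgAN cells (142 of 1798, exact binomial interval 6.69 to 9.24%) and 5.20% of Control cells (70 of 1345, 4.08 to 6.53%), a ratio of 1.52. Over the IgAN plates the share had a lowest value of 3.03% (plate 322) and a highest of 16.0% (plate 315), with 5.98% on plates 313 and 318, 6.80% on plate 316 and 10.3% on plate 325. The Control plates gave 6.30% (314), 6.01% (317), 3.02% (321) and 5.21% (326). The groups overlapped: plates 313, 318 and 322 lay within the Control range, and plates 315, 316 and 325 above every Control plate. Without plate 315 the IgAN share was 6.31%. Without members that held at least 1000 CPM of endothelial markers the share was 5.17% in IgAN and 4.61% in Control. The share of sorted cells also moves with how many of the other cell types were sorted, and that part in the result was not tested.

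**Figure D2:**
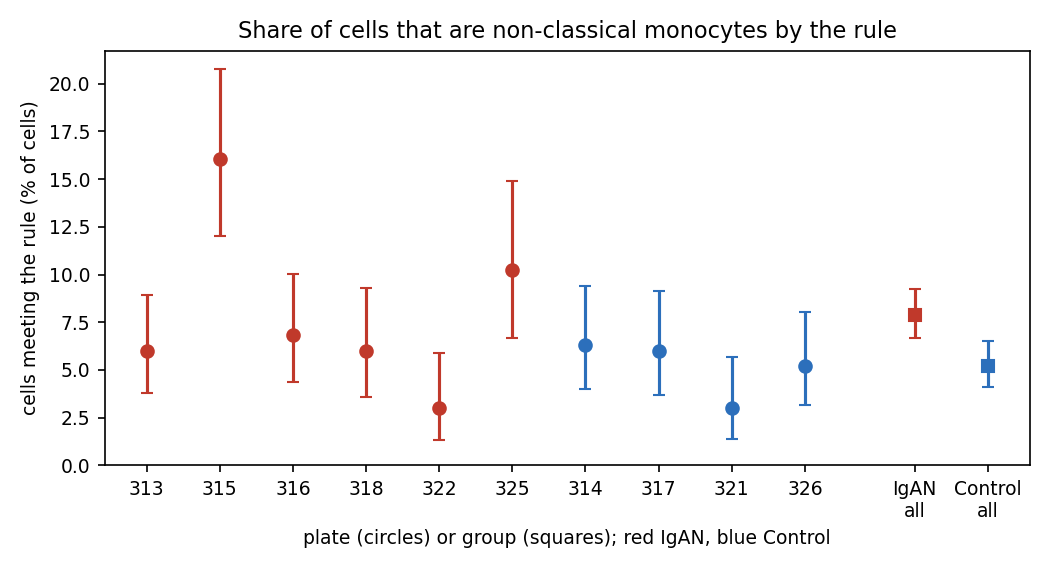
Share of cells that met the rule (percent of the cells, vertical axis) on each plate (circles) and in each group (squares), with exact 95% binomial intervals. Plate 315 stands highest at 16.0%, and the other IgAN plates except plate 325 lie between 3.03% and 6.80%, beside Control plates between 3.02% and 6.30%.

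RNA of other cells was not evenly spread over the plates, and its values are given before the gene results. Members with at least 1000 CPM of 10 endothelial markers numbered 49 in IgAN against 8 in Control. Of the 49, plate 315 held 24 and plate 325 held 15. The pooled sum of the 10 markers was 293 to 2869 CPM over IgAN plates and 241 to 493 CPM over Control plates. Tubule genes followed the same plates: proximal tubule markers summed to 1598 CPM on plate 325 and 566 CPM on plate 315, and to at most 166 CPM on a Control plate. Distal tubule or collecting duct markers summed to 424 CPM in IgAN and 15.3 CPM in Control. Podocyte markers summed to 41.3 to 357 CPM over IgAN plates and 206 to 389 CPM over Control plates, and without members with endothelial RNA they were the 1 list of 29 with plate medians apart, lower in IgAN. The part of this RNA in the results was not tested. B cell RNA had the opposite direction. A sum of Cd79a, Cd79b and Ms4a1 of at least 10 CPM was found in 29 of 142 members from IgAN plates against 47 of 70 from Control plates. On Control plates 321 and 326 it was found in 9 of 9 and 17 of 19 members. Leaving such members out kept 23 Control members, with none on plate 321, so it also removed most of these plates. The same sum was reached in 10.1% of IgAN and 48.2% of Control endothelial reference cells. Whether a well held more than 1 cell was not tested.

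A further difference between libraries was found in members and endothelial reference cells. Gm13340, an annotated copy of mitochondrial sequence in the nuclear genome, had a median of 671 CPM in IgAN members, with a lowest value of 107 CPM, and a median of 0 CPM in Control members. Of the Control members 3 held at least 100 CPM of it (666, 312 and 130 CPM), and all 3 were on plate 317. Endothelial reference cells showed the same separation, at 914 CPM in IgAN and 12.4 CPM in Control. The 3 members go with IgAN by this gene and against their label, and results that rest on them are given with and without them.

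The comparison of IgAN with Control asks how the RNA of these monocytes differs with disease. Reads were summed over the members of a group, and the log2 difference, IgAN minus Control, was taken after adding 1 CPM. Genes counted as measured if their pooled level reached 10 CPM and 20% of members had a read, both in the same group. A size rule called a gene when the difference was at least 1 log2 unit and every plate of a group, of those with at least 5 members, lay above every plate of the other. Of 8717 measured genes 83 (0.952%) were higher in IgAN and 45 (0.516%) were lower. Of all measured genes 56.3% were on the IgAN side, that is, had a positive difference. The median difference was 0.10, and -0.04 when the groups were scaled by the median of ratios, so list medians near 0 have no direction of their own. Without the 57 members with endothelial RNA 43 genes were higher and 45 lower of 7733 measured, of which 27 and 24 were among the first sets.

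The genes of the rule overlapped between the groups by plates. Treml4 stood at 862 CPM in IgAN and 990 CPM in Control, Cd300e at 417 and 476 CPM, Adgre4 at 879 and 933 CPM and Csf1r at 1705 and 2148 CPM. Of 29 non-classical markers outside the rule none met the size rule, 17 were on the positive side and the median was 0.04, which turned to -0.10 under the median of ratios. Ace was at 953 CPM (943 to 964) in IgAN and 952 CPM (937 to 966) in Control. Fcgr4 was at 491 and 322 CPM, with IgAN plates from 331 to 726 CPM and Control plates at 388, 215, 935 and 145 CPM, which overlap. Nr4a1, which encodes the factor that these cells depend on, was at 4110 and 5041 CPM.

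A pair of markers lay apart between plates with less than the fold of the rule, and they were picked after their values were seen. Pglyrp1 was at 581 CPM in IgAN and 345 CPM in Control, with a lowest IgAN plate of 411 CPM, a median of 580 and a highest of 1078, and Control plates at 350, 407, 251 and 306 CPM. Apoc2, an apolipoprotein gene, was at 350 and 183 CPM, with IgAN plates from 242 to 566 CPM and Control plates at 149, 230, 169 and 172 CPM. Without the members with endothelial RNA both met the size rule. In endothelial reference cells Pglyrp1 was also higher in IgAN, at 6.79 against 1.87 CPM, and Apoc2 was below 1 CPM in both groups.

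Interferon response genes were the 1 list of 31 whose plate medians lay apart between the groups. Of its 34 measured genes 31 were on the IgAN side and the median difference was 0.98 log2 units, against 0.10 over all measured genes, and 2 met the size rule, Ifi44 and Ifit2. The plate medians, taken against the pooled Control level, had a lowest IgAN value of 0.40, a median of 0.74 and a highest of 1.24, and the Control plates ran from -0.41 to 0.03. The median was 0.66 without plates 315 and 325, 0.73 without members with endothelial RNA, 1.19 without those with B cell RNA and 1.05 without the 3 Control members with Gm13340. Without the members with endothelial RNA the plates overlapped, since plate 318 then stood at -0.29 and the highest Control plate at -0.03. Interferon genes encode antiviral effectors and sensors.

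**Figure D3:**
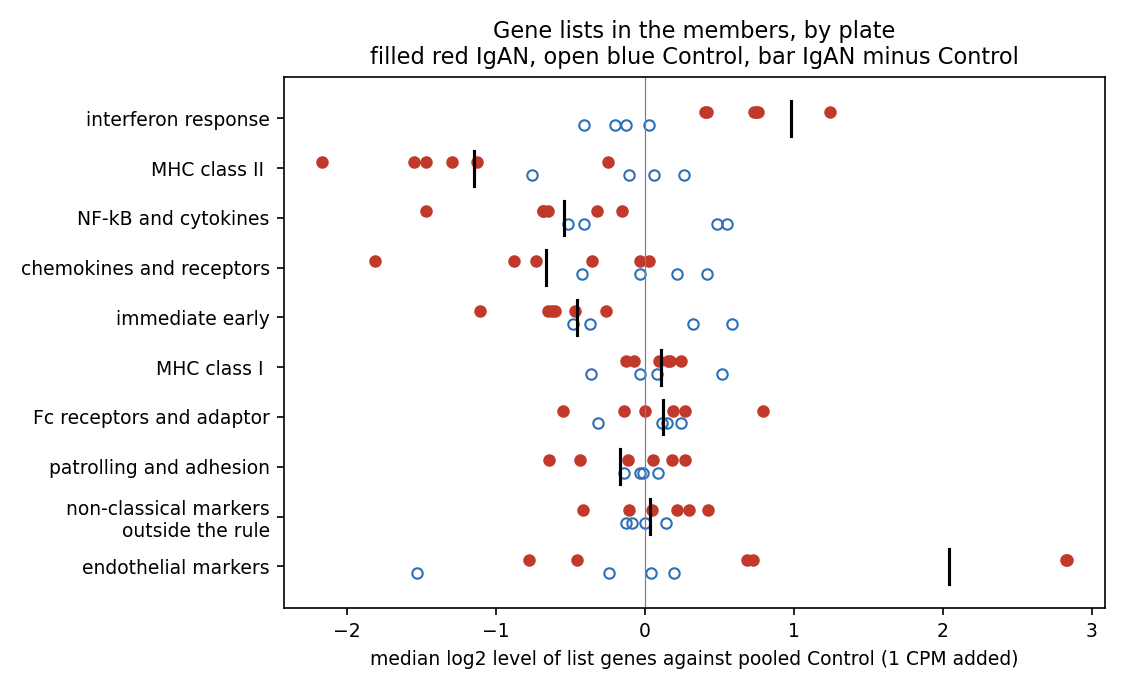
Median log2 level of the measured genes of 10 lists (horizontal axis, against the pooled Control level with 1 CPM added) on each plate, and the IgAN minus Control median of each list (bar). Interferon response genes have IgAN plates from 0.40 to 1.24 and Control plates from -0.41 to 0.03, while the other lists overlap.

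Ifi44, an interferon-induced cytoplasmic protein, was at 350 CPM (344 to 356) in IgAN members and 51.6 CPM (48.4 to 55.0) in Control members. The IgAN plates had a lowest value of 232 CPM, a median of 332 and a highest of 499, and the Control plates gave 2.83, 157, 0 and 3.42 CPM for plates 314, 317, 321 and 326. All IgAN plates were therefore high, and of the Control plates only 317 held a level above a few CPM. On plate 317 the 3 members with Gm13340 had 684, 469 and 1883 CPM of Ifi44, and without them the plate stood at 61.0 CPM and Control at 19.4 CPM. The difference was 2.74 log2 units with a plate SD of 1.94, 4.10 without the 3 members and 6.59 without plate 317. Endothelial reference cells held Ifi44 in both groups, at 316 and 286 CPM. Reads of Ifi44 were found in 82.4% of IgAN and 50.0% of Control members, and in 64.8% and 20.0% after thinning.

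Ifit2, which binds viral RNA, was at 41.9 CPM in IgAN and 2.45 CPM in Control, a difference of 3.63 with a plate SD of 0.92. Its IgAN plates ran from 18.0 to 59.5 CPM and its Control plates were at 6.22, 1.21, 0 and 0.951 CPM. Without members with endothelial RNA the difference was 3.59 and the size rule was not met, and endothelial reference cells held more Ifit2 than the members, at 66.8 CPM in IgAN and 38.3 CPM in Control. The most abundant genes of the list differed little: Ly6e stood at 2790 and 2508 CPM, Ifitm3 at 1400 and 1261 CPM, Ifitm2 at 755 and 806 CPM and Irf7 at 371 and 311 CPM. The wider differences were thus among the less abundant genes, of which some are given here after their values were seen. Rsad2, the antiviral enzyme viperin, was at 91.2 and 8.78 CPM, and its plates overlapped (IgAN 13.6 to 206 CPM, Control 0.565, 2.07, 0.508 and 27.6 CPM). Igtp, an immunity-related GTPase, was at 90.4 and 23.7 CPM and also overlapped. Rsad2 was at 263 and 120 CPM in endothelial reference cells.

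The promoters of Rsad2, Igtp and Ifi44 are shown because the plate medians of the interferon list lay apart, though the plates of Rsad2 and Igtp themselves overlapped. That of H2-Aa is shown from the MHC class II list, whose plate medians overlapped. Each run below is the 250 bases before the RefSeq start of the gene, 5′ to 3′ on the coding strand, in build GRCm38.p6. Capitals mark a match to a core of the interferon-stimulated response element, which is GAAA, any 2 bases and GAAA on either strand, in the first pair, and to the Y box core CTGATTGG of MHC class II promoters in the last. No match to the first core lies in the Ifi44 window.
Rsad2: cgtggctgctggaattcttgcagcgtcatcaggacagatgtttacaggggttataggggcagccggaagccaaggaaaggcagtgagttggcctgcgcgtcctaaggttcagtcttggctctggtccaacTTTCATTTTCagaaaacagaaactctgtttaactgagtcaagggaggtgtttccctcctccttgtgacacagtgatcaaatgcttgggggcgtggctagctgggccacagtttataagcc
Igtp: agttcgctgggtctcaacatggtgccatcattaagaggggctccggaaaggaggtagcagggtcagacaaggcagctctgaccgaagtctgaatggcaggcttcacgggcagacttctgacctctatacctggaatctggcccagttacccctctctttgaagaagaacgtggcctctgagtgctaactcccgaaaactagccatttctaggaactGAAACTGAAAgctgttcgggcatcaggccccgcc
Ifi44: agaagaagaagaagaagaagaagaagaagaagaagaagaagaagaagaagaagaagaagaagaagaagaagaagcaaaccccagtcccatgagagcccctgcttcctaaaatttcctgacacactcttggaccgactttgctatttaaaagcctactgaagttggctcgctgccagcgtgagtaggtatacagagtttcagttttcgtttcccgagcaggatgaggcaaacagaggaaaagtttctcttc
H2-Aa: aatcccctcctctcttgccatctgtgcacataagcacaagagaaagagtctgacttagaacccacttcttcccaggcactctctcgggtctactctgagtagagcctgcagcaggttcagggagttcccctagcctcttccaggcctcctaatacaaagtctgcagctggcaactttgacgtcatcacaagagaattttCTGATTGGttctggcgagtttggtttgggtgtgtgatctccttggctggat

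The Rsad2 window is chr12:26456453-26456702 on the minus strand, that of Igtp chr11:58199306-58199555 on the plus strand, that of Ifi44 chr3:151749911-151750160 on the minus strand and that of H2-Aa chr17:34287824-34288073 on the minus strand. Of the 34 measured interferon genes 27 had a promoter in the RefSeq table, and 15 of these held the response element core, which 2.98% of all 32851 promoters of the same length hold. Ifit2, which met the size rule, is not shown and is not among the 15. Of 12 measured MHC class II genes 7 had a promoter there, and H2-Aa and H2-Eb1 held the Y box core, which 3.83% of all promoters hold. A match is a description of letters and not a bound site. The interferon genes were listed for their known response, so their share of matches says nothing about IgAN against Control.

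MHC class II presentation genes had the opposite direction. These genes load peptides for CD4 T cells. Of 12 measured genes 1 was on the IgAN side, the median difference was -1.15 log2 units, and H2-Aa and Cd74 met the size rule as lower in IgAN. Neither met it without members with endothelial RNA, where their differences were -1.19 and -1.18. H2-Aa, the class II alpha chain, was at 243 CPM (238 to 248) in IgAN and 672 CPM (660 to 684) in Control, a difference of -1.46 with a plate SD of 0.64. The IgAN plates ran from 99.8 to 357 CPM with a median of 223, and the Control plates were at 985, 699, 422 and 419 CPM. Cd74, the invariant chain that escorts class II molecules, was at 855 and 2158 CPM, a difference of -1.34 with a plate SD of 0.30. Its IgAN plates ran from 582 to 1094 CPM and its Control plates were at 2561, 2249, 1739 and 1808 CPM, so every Control plate lay above every IgAN plate. Cd74 shares exonic bases with the microRNA gene Mir5107 on the same strand. H2-Ab1 stood at 255 and 698 CPM and H2-Eb1 at 283 and 744 CPM, with overlapping plates, and the protease gene Ctss at 1993 and 1947 CPM.

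Members differed widely in their class II RNA. The sum of H2-Aa, H2-Ab1, H2-Eb1 and Cd74 had a median of 215 CPM over IgAN members and 1310 CPM over Control members. It reached 1000 CPM in 22 of 142 IgAN members (15.5%) and 37 of 70 Control members (52.9%). The median was highest on Control plate 317 at 1765 CPM and lowest on IgAN plate 316 at 25.0 CPM, and Control plate 326, at 673 CPM, was close to the highest IgAN plate at 604 CPM. B cells and dendritic cells also make class II molecules, so medians were also taken without members that held their RNA. The part of that RNA in the result was not tested. Without the members that held B cell RNA the medians were 255 CPM in IgAN and 1284 CPM in Control. Without those with at least 50 CPM of dendritic cell genes (Flt3, Xcr1, Clec9a and Cd209a together) they were 172 and 827 CPM. Without those with B cell RNA, endothelial RNA or these dendritic cell genes they were 99.7 and 1086 CPM, over 69 and 19 members. The pooled H2-Aa level then turned round, to a difference of 0.69 log2 units, that of Cd74 was -0.79, and the median of the list was 0.13. In these members H2-Aa thus was higher in IgAN by its pooled reads, while the median member held less class II RNA in IgAN. In endothelial reference cells H2-Aa was at 11.8 and 9.73 CPM and Cd74 at 43.8 and 39.3 CPM.

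**Figure D4:**
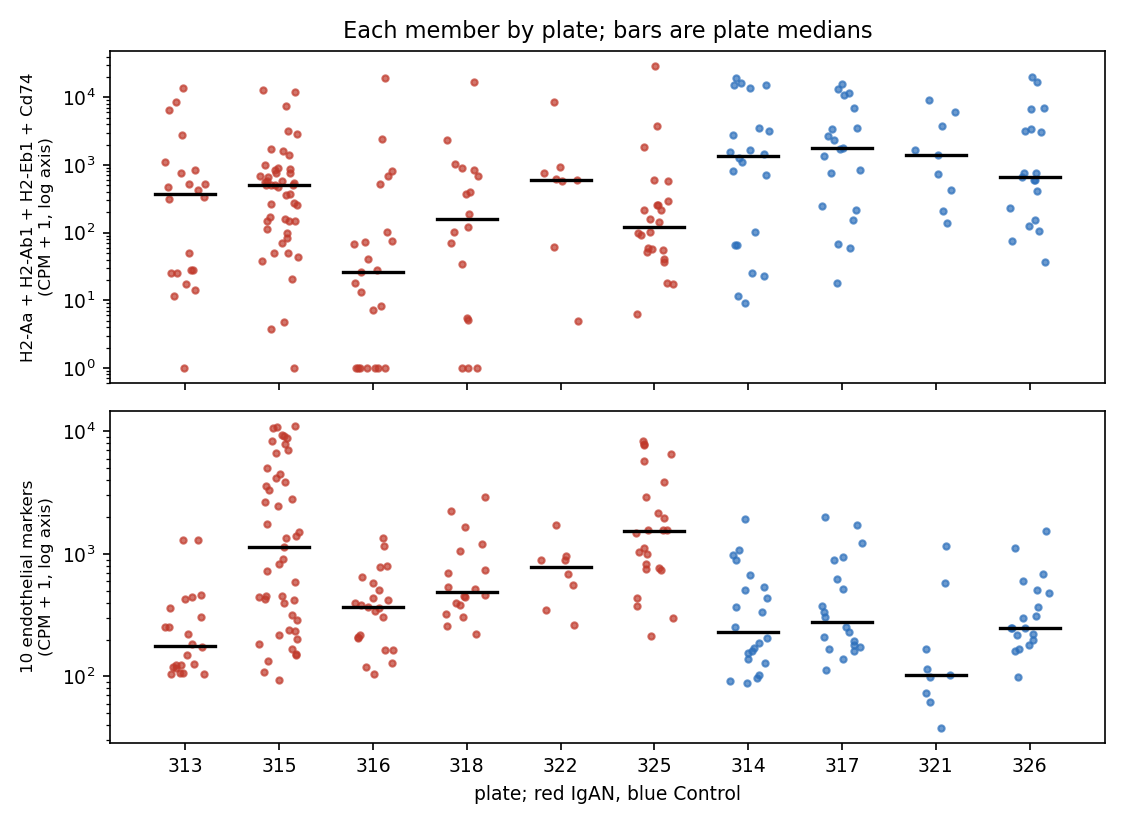
Each member by plate, with the sum of 4 MHC class II genes (upper panel) and of 10 endothelial markers (lower panel) in CPM with 1 added on a log axis, and plate medians as bars. Class II medians run from 25.0 to 604 CPM on IgAN plates and from 673 to 1765 CPM on Control plates, and endothelial RNA is highest on IgAN plates 315 and 325.

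Receptors of immunoglobulin and of the TREM family held 1 called gene each, Fcgrt and Trem1. Fcgrt, the neonatal Fc receptor that recycles IgG and albumin, was at 541 CPM (533 to 548) in IgAN and 188 CPM (182 to 194) in Control, a difference of 1.52 with a plate SD of 0.98. The IgAN plates had a lowest value of 415 CPM, a median of 533 and a highest of 736, and the Control plates were at 265, 221, 23.9 and 134 CPM. Without members with endothelial RNA the difference was 1.87, and in endothelial reference cells Fcgrt was lower in IgAN, at 152 against 221 CPM. After thinning, reads of Fcgrt were found in 81.7% of IgAN and 44.3% of Control members. The Fc receptor list as a whole had 5 of 9 genes on the IgAN side and a median of 0.13, which turned to -0.01 under the median of ratios. Its adaptor Fcer1g stood at 954 and 1004 CPM, and the phosphatase gene Inpp5d at 426 and 506 CPM.

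Trem1, an amplifier of inflammatory signals that pairs with DAP12, was at 394 CPM (387 to 400) in IgAN and 185 CPM (179 to 192) in Control. The IgAN plates ran from 314 to 598 CPM with a median of 380, and the Control plates were at 206, 193, 150 and 170 CPM, a narrow range. The difference was 1.08 with a plate SD of 0.34, near the limit of the rule: it was 0.93 without members with B cell RNA, 0.82 as a mean over cells and 0.95 under the median of ratios, which end the call. In endothelial reference cells Trem1 was below 1 CPM in both groups. The list of TREM and CD300 receptors had 6 of 17 genes on the IgAN side and a median of -0.18. Tyrobp was at 1334 and 1496 CPM, Cd300a, an inhibitory receptor, at 714 and 874 CPM, and Sirpa, which binds CD47, at 700 and 1005 CPM, all with overlapping plates.

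Amica1, now called Jaml, encodes a junctional adhesion molecule of leukocytes and was the called gene of the patrolling and adhesion list. It was at 249 CPM (243 to 254) in IgAN and 48.3 CPM (45.2 to 51.6) in Control, a difference of 2.34 with a plate SD of 0.88. The IgAN plates ran from 129 to 434 CPM with a median of 242, and the Control plates were at 92.1, 30.6, 13.2 and 36.7 CPM. Of its IgAN members 83 of 142 had a read, and the highest of them held 10.9% of the reads. Amica1 shares exonic bases with Gm10684 on the other strand, and no strand setting of the counts is given in the labels used here. No other gene of the list met the size rule, 8 of 22 genes including Amica1 were on the IgAN side and the median was -0.17. Itgal stood at 1802 and 1519 CPM, the LFA-1 beta chain Itgb2 at 1246 and 1817 CPM, Coro1a, a regulator of actin, at 1992 and 2707 CPM and talin Tln1 at 1044 and 1302 CPM.

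**Figure D5:**
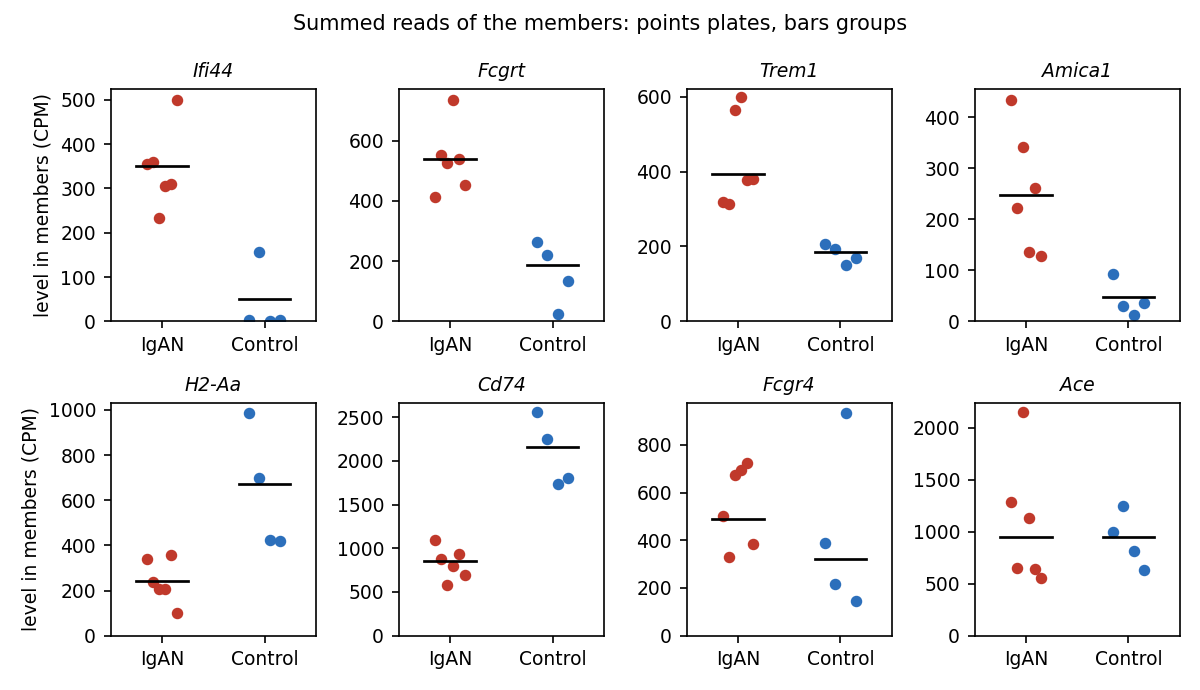
Level (CPM) of 8 genes in the summed reads of the members on each plate (points) and in each group (bars). Ifi44, Fcgrt, Trem1 and Amica1 are higher on each IgAN plate than on any Control plate, H2-Aa and Cd74 are lower, and Fcgr4 and Ace overlap.

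Genes of inflammatory activation had negative medians that depended on Control plate 326 and on members with B cell RNA, and their plates overlapped. Of the 19 members on plate 326, 17 held B cell RNA, so these exclusions are not separate. NF-kB and cytokine genes had 4 of 23 measured genes on the IgAN side and a median of -0.54, which was -0.25 without plate 326 and -0.06 without members that held RNA of the 3 other kinds. Nfkbia, the inhibitor that NF-kB induces, was at 1034 CPM in IgAN and 1556 CPM in Control, Nfkbiz at 977 and 1485 CPM, Il1b at 1223 and 1595 CPM and Rel at 455 and 808 CPM. Chemokines and receptors had 6 of 17 genes on the IgAN side and a median of -0.66, which was -0.16 without plate 326, -0.18 without members with B cell RNA, -0.22 without the 3 kinds and -0.28 without plates 315 and 325. In it Ccl6 stood at 977 and 938 CPM, Ccrl2 at 671 and 1123 CPM and the fractalkine receptor gene Cx3cr1 at 416 and 687 CPM. Ccl9 lay apart by plates without the fold of the rule: IgAN plates ran from 212 to 564 CPM and Control plates were at 761, 858, 810 and 635 CPM. Immediate early genes, which also respond to tissue dissociation, had 1 of 19 genes on the IgAN side and a median of -0.46. Dusp1 was at 2033 and 2892 CPM, Fos at 2061 and 2827 CPM and Zfp36 at 1870 and 2611 CPM. No gene of these 3 lists met the size rule, and the immediate early median was -0.15 without Control plate 326, -0.07 without members with B cell RNA and 0.03 without the 3 kinds.

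Further lists held no called gene. Of 20 MHC class I genes 14 were on the IgAN side with a median of 0.11, where the light chain gene B2m stood at 2825 and 2478 CPM and the heavy chain gene H2-K1 at 1883 and 1533 CPM. The near-identical class I genes H2-Q6 and H2-Q7 share reads in part and are uncertain. Genes of phagocytosis, lysosome and oxidase had 10 of 27 on the IgAN side and a median of -0.09, with the lysozyme gene Lyz2 at 3690 and 3914 CPM, Psap at 3590 and 4332 CPM and Ctsb at 2404 and 2420 CPM. Genes of oxidative phosphorylation had 18 of 23 on the IgAN side and a median of 0.40, which was 0.15 without members with endothelial RNA and 0.06 without plate 315. Classical monocyte markers had 3 of 11 on the IgAN side and a median of -0.52, which was -0.02 without Control plate 326 and -1.17 without plates 315 and 325, with Ccr2 at 148 and 351 CPM and overlapping plates.

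The 12 widest differences in each direction were taken without markers of other cell types and without unnamed gene models. Left out on the positive side were Gm13340 with a difference of 5.10, Gm4076 with 4.73, Gm13341 with 4.52 and Gm13339 with 4.42, among others. These models count among the 83 genes higher in IgAN. Of the 12 named positive differences, several were of genes of endothelial cells. Aplnr, the apelin receptor, was at 44.0 CPM in IgAN and 0.927 CPM in Control, Bmp6 at 18.7 and 0.0545 CPM, coagulation factor F8 at 27.7 and 0.545 CPM and fractalkine Cx3cl1 at 64.9 and 3.82 CPM. The difference of Bmp6 was 4.23, but 0.82 without plate 315 and 0.63 without members with endothelial RNA, and that of Cx3cl1 was 3.78, but 1.12 without those members. The endothelial marker Plvap also met the rule, at 29.5 and 1.20 CPM, with a difference of 3.79, or 1.18 without them. Gimap8 was at 28.4 and 1.04 CPM and Sult1c2 at 16.5 and 0 CPM, with 46.8% of the Sult1c2 reads in 1 member. Set against 3 counts over the Control group the Sult1c2 level is 101-fold, a figure that takes reads as independent and is no lower bound. Without the members with endothelial RNA the difference of Gimap8 was 1.01 and that of Sult1c2 was 0.82.

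The other 6 had differences of 2.67 (Amotl1) to 5.06 (Klra9) without those members, and of all 12 only Ivd and Amotl1 then still met the size rule. Klra9, a receptor of the Ly49 family better known from NK cells, was at 24.1 CPM (22.5 to 25.8) in IgAN and had no read in Control. Set against 3 counts over the Control group the level is 147-fold, a figure that takes reads as independent and is no lower bound. Its reads came from 38 of 142 members, its IgAN plates ran from 4.99 to 35.1 CPM, and endothelial reference cells held less than 0.1 CPM in both groups. Klra9 belongs to a family of near-identical genes, so its reads are uncertain. Ivd, which acts in leucine breakdown, was at 39.1 and 1.53 CPM, Amotl1, an angiomotin-like scaffold, at 44.5 and 1.91 CPM, Zfp397, a zinc finger gene, at 27.7 and 0.600 CPM and Ccdc90b at 22.3 and 0.327 CPM. Rnf135, a ubiquitin ligase for the RNA sensor RIG-I, was at 18.1 and 0.218 CPM, with 48.1% of its reads in 1 member. For several of these genes the lowest IgAN plate was close to the Control plates, as for Ivd with 2.07 CPM on the lowest IgAN plate and 1.90 CPM on the highest Control plate.

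The 12 widest negative differences, taken with the same genes left out, were of varied genes. Tnfsf9, the ligand of the costimulator 4-1BB, was at 3.57 CPM (2.98 to 4.25) in IgAN and 102 CPM (97.1 to 106) in Control, with Control plates at 19.4, 101, 332 and 98.7 CPM and IgAN plates from 0 to 18.4 CPM. Its reads came from 16 of 70 Control members, and 35.0% of them from 1. E4f1 was at 5.40 and 79.4 CPM, Ccdc130 at 1.52 and 29.7 CPM, the deacetylase gene Hdac10 at 6.18 and 62.1 CPM and Zbtb26, which shares exonic bases with Zbtb6 on the same strand, at 3.04 and 20.9 CPM. The transcription factor gene Rreb1 was at 9.64 and 68.7 CPM. Its difference of -2.71 turned to 1.95 without members with B cell RNA, where 23 Control members were left. Suv420h1, a histone methyltransferase gene, was at 12.9 and 65.9 CPM, Arl5c at 33.0 and 137 CPM and Madd at 36.5 and 133 CPM.

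Tmem14c, Ralb and Grk6 were read in more members. Tmem14c, a mitochondrial membrane protein of heme synthesis, was at 30.9 CPM in IgAN and 156 CPM in Control, with Control plates at 176, 158, 116 and 150 CPM and IgAN plates from 0 to 81.9 CPM. After thinning its reads were found in 20.4% of IgAN and 60.0% of Control members. Ralb, a small GTPase, was at 31.7 and 184 CPM, and the receptor kinase gene Grk6 at 34.2 and 165 CPM. Tmem14c and Ralb were lower in IgAN in endothelial reference cells too, by -3.45 and -2.37 log2 units, so the same direction was found outside the monocytes.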

How the data were processed

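Single-cell SMART-seq2 libraries of mouse kidney were analysed from the deposited counts, whole-number reads per gene and cell as the authors deposited them. Reads were aligned and counted against GRCm38 (mm10) with TopHat2 2.1.1, SAMtools 0.1.18 and featureCounts of Subread 1.4.6-p5, per the submitters' processing notes. For strand setting and annotation, the notes used here give no entry.

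CPM was computed per cell, and over the summed reads of members per plate and group. The 3143 cells held 50365 to 1135415 reads (median 234207). No cell was left out and no doublet caller was run. Cells were sorted 1 to a well, but whether a well held more than 1 cell was not tested. A gene was measured at 10 CPM with a read in 20% of the members of 1 group. The size rule asked for 1 log2 unit (1 CPM added) and no overlap between plates of at least 5 members, and was tested on simulated data. Comparators were C1q macrophages, Ly6c2 or Ccr2 monocytes and endothelial cells, and 2 log2 units called a gene there. With 1 sample a group no test was run. Members and gene lists were chosen with earlier results of these data known.

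Named genes are those of the rule, the markers, the 12 widest differences per direction (without markers of other types and gene models), list genes that met the size rule and the 4 most abundant of each described list. Other named genes (Rsad2, Igtp, Ccl9, H2-Ab1, H2-Eb1, Pglyrp1 and Apoc2 among them) were chosen after their values were seen. Some genes that the rule names are not reported here. Exon overlaps came from GENCODE vM21, where 42052 of 46517 gene names matched, and promoters from RefSeq (GRCm38.p6). Of 26 alternative settings, planned and added, the closing section gives the effects. Python 3.11.15, numpy 2.4.6, scipy 1.17.1, pandas 2.3.3 and matplotlib 3.10.9 were used.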

Additional observations from a re-analysis of the deposited data

Results flagged for a closer look

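Of 104 sets of plate values looked at, 8 held 1 plate far from the others of its group. The rule for this has a nominal rate of about 1 in 20, which was not measured on these data. Among IgAN plates, Aplnr stood at 99.9 CPM on plate 315 with the next plate at 18.7 CPM, Bmp6 at 48.1 CPM on plate 315 with the next at 1.90 CPM, and F8 at 127 CPM on plate 325 with the next at 30.3 CPM. These are the plates whose members held most endothelial RNA, and its part in the values was not tested. Tnfsf9 stood at 18.4 CPM on IgAN plate 316 with the next plate at 4.87 CPM.

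Among Control plates, Ifi44 stood at 157 CPM on plate 317, where the next plate had 3.42 CPM. This is the plate of the 3 Control members with Gm13340. Grk6 was at 253.6 CPM on plate 314 with the next plate at 139 CPM. Cx3cl1 was at 6.85 CPM on plate 326 with the next at 2.64 CPM, and Bmp6 at 0.172 CPM on plate 317, which is 1 read, with none on the other Control plates.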

How the results depend on the processing

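The counts of genes moved more with the settings than the list medians did: 100 of 132 values of shares and counts, 678 of 710 list medians and 710 of 759 values of single genes stayed close to those given. The cause of each shift was not tested. Settings that leave out members or cells by endothelial RNA, B cell RNA or dendritic cell genes, plates 315 and 325 together, or the Control members with Gm13340 were chosen after seeing the data. The share of members was 0.445% in IgAN and 0.372% in Control without members with 3 endothelial markers, and 5.17% in IgAN and 4.61% in Control without those with 1000 CPM of endothelial RNA. With 1 plate left out it was 6.31% (without 315) to 8.74% in IgAN and 4.82% to 5.83% in Control. Genes higher than in C1q macrophages numbered 3007 in Control cells alone. Against Ly6c2 or Ccr2 monocytes 331 genes were higher in IgAN cells alone, 668 in Control cells alone, 116 with 5 CPM added and 338 without cells with endothelial RNA, and 432 and 312 were lower under the last pair.

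Genes higher in IgAN by the size rule numbered 32 at a filter of 50 CPM, 134 with no filter, 181 with plates of at least 10 members, 43 without endothelial RNA, 372 without B cell RNA, 219 without all 3 kinds of members, and 87 to 184 with 1 plate left out (184 without plate 326). Genes lower in IgAN numbered 122 with plates of at least 10 members, 21 at 1.5 log2 units, 123 without plates 315 and 325, 254 without B cell RNA, 311 without all 3 kinds, and 55 to 103 with 1 plate left out (103 without plate 321). Fewer plates make the size rule easier to meet, and leaving out members with B cell RNA left none on plate 321. Of called genes 64.8% were higher in IgAN, 48.5% at the filter of 50 CPM and 58.4% under the median of ratios. Without all 3 kinds of members H2-Aa turned to 0.69 and Rreb1 to 1.53, and Rreb1 was at 1.95 without B cell RNA. The planned size rule without members with 3 endothelial markers was not run, since 8 IgAN and 5 Control members were left. No paired analysis was possible because each plate held 1 group and no label pairs plates.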

Other observations

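Among lists not described above, 9 of 11 heat shock genes were on the IgAN side with a median of 0.27 log2 units, and 0.03 without members with endothelial RNA. Genes of lipid and cholesterol handling had 10 of 18 on that side and a median of 0.10, with Apoe at 1779 CPM in IgAN and 1560 CPM in Control, Cd36 at 1179 and 1027 CPM and Plin2, which coats lipid droplets, at 545 and 624 CPM. Toll-like receptors and their signalling had 5 of 16 on the IgAN side, with the LPS co-receptor Cd14 at 866 and 851 CPM and Irf5 at 496 and 825 CPM. None of these genes met the size rule.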
